A study of Vitis vinifera with 2 samples.

Results

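The binding events described here are those of grapevine MYB24 on haplotigs, the assembled stretches that carry the alternative version of parts of the heterozygous 'Cabernet Sauvignon' genome. They were taken from the deposited event list that covers primary contigs and haplotigs (the diploid list), as the rows whose sequence name contains "Haplotig". There were 2060 such events among the 6102 of that list, on 424 haplotigs, and the other 4042 events lay on 427 primary contigs. The data came from 2 libraries, 1 in each group: HALO-tagged VvMYB24 and the HALO tag alone (pIXHALO), which the authors used as negative control. Both proteins were made in rabbit reticulocyte lysate and mixed with the same fragmented, naked DNA from young leaves of clone 08 (DNA source CabSauv-B). A second deposited list of the MYB24 library held 6663 events on primary contigs alone (the primary-only list). With 1 library a group, no difference between kinds of events has a replicate check, and none was tested.

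Grapevine MYB24 belongs to the R2R3-MYB transcription factors, and its closest relatives in Arabidopsis, MYB21 and MYB24, act in stamen and petal development downstream of jasmonate and regulate flavonol genes. R2R3-MYB proteins bind DNA through a pair of helix-turn-helix repeats. In DNA affinity purification sequencing (DAP-seq) the tagged protein captures fragments of purified genomic DNA, so an event records affinity of the protein for a sequence in the absence of chromatin. The grapevine cultivar is a cross of unlike parents, and its assembly therefore carries many loci in separate haplotype versions. A primary contig holds a continuous version of a locus, and a haplotig named with the same contig number holds the other version of a part of it. A read that fits both versions equally well has no unique place in such a reference, and the sources used here do not say how such reads were treated.

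Haplotig events were mostly weak, with a thin tail of strong sites. Strength, the signal value that the authors deposited for each event, had a median of 26.8 on haplotigs (95% interval 26 to 27, n = 2060 events) and 29 on primary contigs of the same list (28.6 to 30, n = 4042 events). The quartiles were 20 and 39 on haplotigs, against 22 and 45.2 on primary contigs, and both kinds of event began at a strength of 13. The strongest haplotig event reached 435, against 1315 on primary contigs, where 9 events were at least as strong as the strongest on any haplotig. The 21 strongest haplotig events, 1% of them, held 6.83% of the summed haplotig strength, against 8.56% for the strongest 1% on primary contigs. The sources used here do not say what a unit of strength counts, so the depth behind single events is unknown. The intervals cover counting error only, with each event taken as independent of the others.

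**Figure D1:**
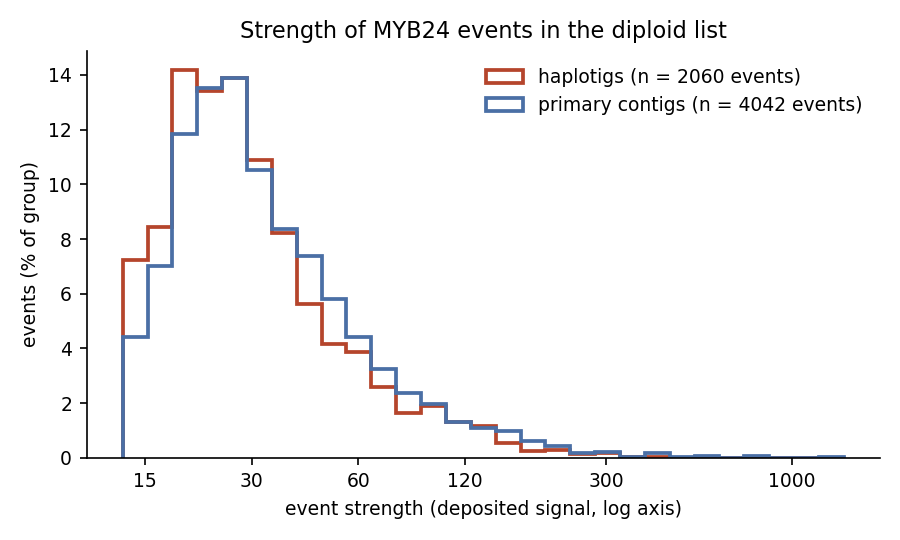
Distribution of event strength (log axis) on haplotigs and on primary contigs of the diploid list, each as a percentage of its own events. The haplotig curve is higher below a strength of about 20 and lower at most strengths above 40, with medians of 26.8 and 29.

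Haplotigs held a smaller share of strong than of weak events. Over 5 groups of nearly equal size, ordered from the weakest to the strongest events of the diploid list, haplotigs held 39.9% (95% Wilson interval 37.2 to 42.7%), 36.9% (34.3 to 39.7%), 32.1% (29.6 to 34.8%), 30.7% (28.2 to 33.4%) and 29.1% (26.6 to 31.7%) of the events. These intervals also cover counting error only, and the difference between the groups was not tested. Haplotigs held 25 of the 100 strongest events and 3 of the 20 strongest. The order was alike when only the 175 contig numbers with haplotig events were used, where the shares were 47.1%, 46.9%, 38.7%, 35.7% and 34.6%. Primary contigs of those numbers had a median strength of 30 (29 to 30.7, n = 3013 events) and the remaining primary contigs one of 27 (26 to 28, n = 1029 events).

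**Figure D2:**
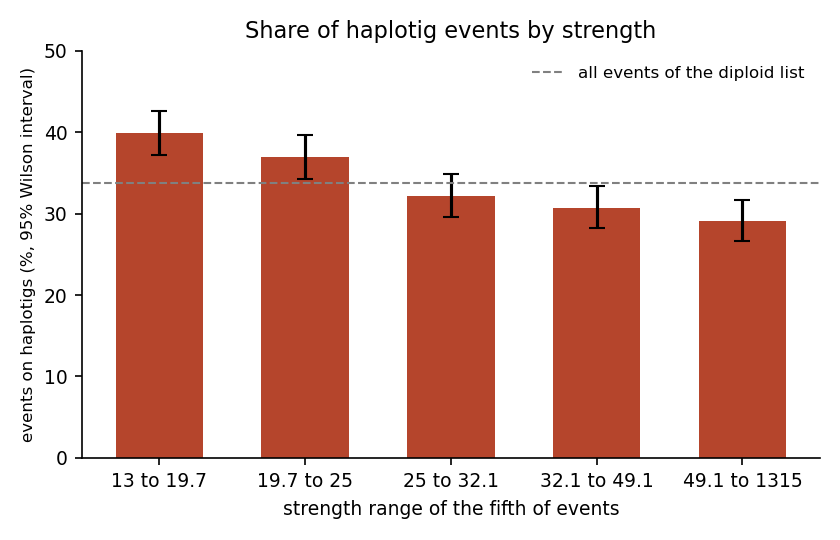
Percentage of events that lie on haplotigs in each of 5 equal groups of the diploid list by strength, with 95% Wilson intervals; the dashed line is the share over the whole list. The share is 39.9% in the weakest group and 29.1% in the strongest.

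Significance was also a little lower on haplotigs. The authors' −log10 q-value, which had a minimum of 2 in the list, had a median of 3.35 on haplotigs and 3.54 on primary contigs. It reached 5 at 636 haplotig events (30.9%, 28.9 to 32.9%) and at 1376 events on primary contigs (34.0%, 32.6 to 35.5%), with 33.0% over the whole diploid list. It reached 10 at 276 haplotig events (13.4%, 12.0 to 14.9%) and at 603 primary events (14.9%, 13.9 to 16.1%), with 14.4% over the list. A strength over 100 was found at 90 haplotig events (4.37%, 3.57 to 5.34%) and 237 primary events (5.86%, 5.18 to 6.63%), with 5.36% over the list. These thresholds share events and are not separate results. Per unit of strength the kinds of event were close among events over 100, though strengths were not matched. There −log10 p per unit of strength had a median of 0.235 on haplotigs, with quartiles of 0.219 and 0.260. On primary contigs the median was 0.230, with quartiles of 0.202 and 0.258.

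The strongest haplotig event was at position 46118 of Haplotig000049F_003 (interval 46019 to 46219), where strength was 435 and −log10 q was 107. The other 3 events of this haplotig had strengths of 52, 20 and 17, at 37081, 148641 and 280995. It stood above every event on Primary000049F, where the strongest had a strength of 245 in the diploid list and 202 in the primary-only list. Genes near these sites are not named, since no gene models of this assembly were used here.

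The other haplotig events over 300 numbered 3. Haplotig000015F_018 at 296974 had a strength of 349.6, and it was the only event of that haplotig. Its −log10 q was 29.3, and its −log10 p per unit of strength, 0.0892, was the lowest of the 90 haplotig events over 100 and the only one under 0.1, against 7 of 237 on primary contigs. The next lowest on haplotigs were 0.124 on Haplotig000371F_002 at 96565, 0.126 on Haplotig000001F_068 at 1467379 and 0.127 on Haplotig000106F_001 at 17477. Haplotig000028F_003 at 690980 reached 321.9, its −log10 q being 77.1, and its 5 companions on that haplotig ranged from 21 to 49.6. Haplotig000006F_034 at 1321610 reached 301, its −log10 q being 80.1, and the nearest other event lay 241642 bp away. That haplotig carried 3 more events over 100, at 518595, 600357 and 600469, with strengths of 132.3, 153.1 and 120.9.

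The 90 events over 100 were spread over 65 of the 424 haplotigs, against 237 events on 110 of 427 primary contigs, and a few haplotigs carried several. Haplotig000022F_016 had 5 events, with strengths of 23 at 96847, 76.2 at 249177, 290.8 at 249245, 233.2 at 272419 and 211 at 275470. Its median of 211 was the highest of the 155 haplotigs with at least 5 events, whose medians otherwise ended at 56.9 and had a middle value of 26.5. Haplotig000028F_013 carried 3 of its 9 events over 100, with 253.5 at 27459, 215 at 278520 and 154 at 1236101, while 5 of the others were at 20 or below.

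The remaining events among the 12 strongest had strengths between 227 and 281. They were on Haplotig000023F_025 at 386930 with 281, Haplotig000010F_021 at 431081 with 259, Haplotig000001F_068 at 1198480 with 253, Haplotig000107F_010 at 1142764 with 231 and Haplotig000283F_005 at 301700 with 227. Of the 12 events, which lay on 11 haplotigs, 7 were stronger than any event on the primary contig of the same number in the diploid list, and 4 were stronger than any there in the primary-only list. The gap was wide for Haplotig000107F_010, whose primary contig had no event above 38 in the diploid list and 123.1 in the primary-only list. It was also wide for Haplotig000283F_005, with 22 in the diploid list and 89 in the primary-only list on Primary000283F. Over all 163 contig numbers with events of both kinds, the strongest event lay on a haplotig in 57.

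Most haplotigs held few events. The median was 3 events, with quartiles of 1 and 6, against a median of 5 with quartiles of 2 and 12 on primary contigs, and 111 haplotigs (26.2%) held a single event. At the other end, 59 haplotigs with 10 or more events held 880 of the 2060 events (42.7%). Between the first and last event, haplotigs with at least 5 events had a median density of 10.6 events per Mb (quartiles 7.84 and 16.1, n = 155), and such primary contigs had 9.43 (quartiles 7.45 and 13.3, n = 228). Sequence lengths were not at hand, and this density leaves out the ends of each sequence and haplotigs with no event.

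Haplotig000106F_001 had the most events, 38, followed by Haplotig000023F_025 and Haplotig000065F_003 with 32 each. Haplotig000002F_095 had 26, Haplotig000004F_076 had 22 and Haplotig000002F_098 had 21. Haplotig000004F_018, Haplotig000010F_020 and Haplotig000018F_029 had 19 each, and Haplotig000001F_023, Haplotig000001F_084, Haplotig000008F_029 and Haplotig000019F_015 had 18 each. Their median strengths ran from 20.7 on Haplotig000002F_098 to 56.9 on Haplotig000106F_001, and the other 11 lay between 23.5 and 37. These haplotigs are long: all but Haplotig000106F_001 had their first and last event at least 1263270 bp apart. Haplotig000002F, the only haplotig in the list whose name has no running number, had 8 events with strengths of 13 to 107.9.

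**Figure D3:**
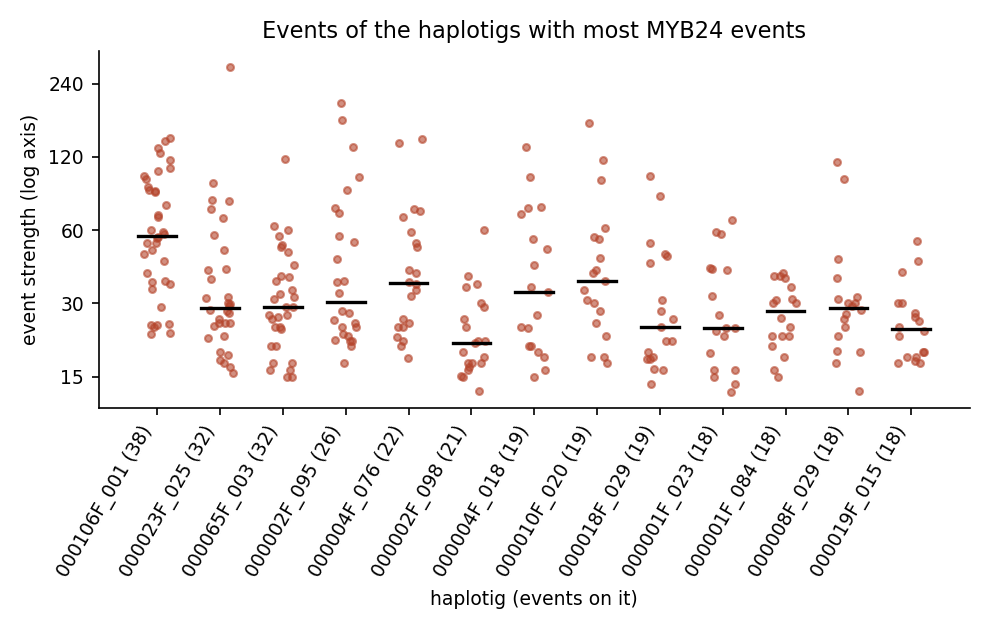
Strength of every event (log axis, points) on the 13 haplotigs with 18 or more events, with the number of events in brackets and the median as a bar. Haplotig000106F_001 has the highest median, 56.9, and Haplotig000023F_025 the strongest single event, 281.

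Grouped by the contig number in their names, the haplotig events fell on 175 numbers. A single haplotig with events stood for 85 of these, and the most was 17 haplotigs for number 000004F. At these numbers haplotigs held 2060 of 5073 events (40.6%, 39.3 to 42.0%), and the 288 numbers with no haplotig event had 1029 events on primary contigs of the diploid list. Haplotig events outnumbered those on the primary contig of the same list at 48 numbers, equalled them at 12 and were fewer at 115. At 12 numbers the primary contig had 0 events in the diploid list, but these carried 17 haplotig events in all and at most 3 each. Against the primary-only list, which places its own 5737 events on these numbers, haplotig events were the more numerous at 16. The lists begin at unlike strengths, 13 in the diploid list and 23 in the primary-only list. Of the haplotig events, 738 (35.8%) lay under the primary-only minimum.

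The largest imbalance within the diploid list was at number 000004F. Its 17 haplotigs carried 94 events, against 8 on Primary000004F in the diploid list and 24 in the primary-only list. Haplotig000004F_076, Haplotig000004F_018 and Haplotig000004F_090 held 22, 19 and 17 of them with medians of 36.5, 33.5 and 34, and the other 14 haplotigs held 7 or fewer each. The strongest was on Haplotig000004F_020 at 86982, with 174.7 in strength and 38.4 in −log10 q, in a group of 3 events within 1205 bp. Primary000004F itself had no event above 144.6 in the diploid list and 228.8 in the primary-only list. Its last event was at 843195 in the diploid list, whereas Haplotig000004F_076 had events up to 3303784.

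Number 000043F had 35 events on 6 haplotigs, against 5 on Primary000043F in the diploid list. Against the primary-only list, which begins at a higher strength, it had 35 against 3 and was more unbalanced than 000004F. Haplotig000043F_024 held 17 of the 35, with a median strength of 28.2, and its strongest event had 132, against 31 for the strongest on the primary contig in the diploid list. Number 000044F had 20 haplotig events against 6 on the primary contig, and 000088F had 10 against 5. These 4 were the numbers with 10 or more haplotig events and at least 2 times as many as on a primary contig that had any. The last haplotig event lay at 2194464 at 000043F and at 1768421 at 000044F. On their primary contigs the last event of the diploid list lay at 670713 and 1356584. At 000088F the last haplotig event, at 895272, lay short of the last primary one, at 943444. The counts are not per length, since lengths were not at hand.

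The other numbers with most haplotig events had primary contigs with as many or more events, except 000001F and 000065F. Number 000001F had 82 haplotig events against 62 on the primary contig, and 000065F had 32 against 29. The pairs of counts, haplotig before primary contig, were 77 and 93 at 000002F, 59 and 111 at 000000F, 48 and 70 at 000005F, 45 and 46 at 000023F, and 40 and 48 at 000018F. They were 38 and 42 at 000106F, 35 and 58 at 000010F, and 32 and 53 at 000008F. These 12 numbers together held 617 of the 2060 haplotig events (29.95%).

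**Figure D4:**
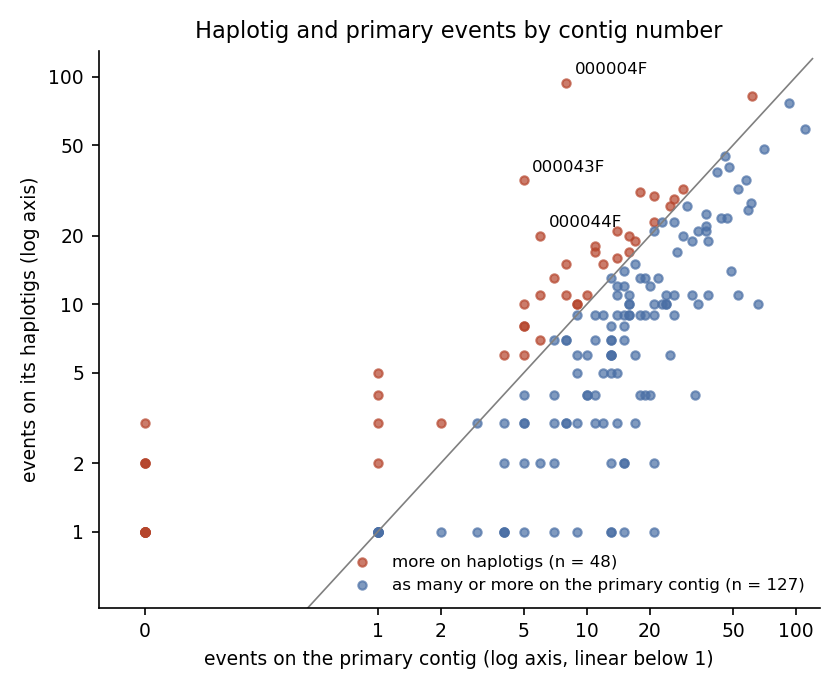
Number of MYB24 events on the haplotigs of each contig number against the number on its primary contig in the diploid list (log axes, the horizontal one linear below 1; the line marks equal counts; n = 175 numbers). At 48 numbers, drawn in red, haplotigs held more; 000004F with 94 against 8, 000043F with 35 against 5 and 000044F with 20 against 6 lie farthest above the line among numbers with 20 or more haplotig events.

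Haplotig and primary events of the same number had close median strengths at most numbers. Of the 110 numbers with at least 5 events of both kinds, the haplotig median was higher at 47, lower at 62 and equal at 1. The log2 ratio of the haplotig median to the primary median had a middle value of -0.09, with quartiles of -0.35 and 0.17 and a range of -1.33 to 0.73. At 000005F the medians were 24 on haplotigs and 40.5 on the primary contig, and at 000000F they were 25 on haplotigs and 44 on the primary contig. In the primary-only list the primary medians were 50.5 at 000005F and 48 at 000000F. In the other direction, 000107F had 35 on its haplotig and 21.1 on the primary contig in the diploid list, but the median of Primary000107F in the primary-only list was 47, above that of the haplotig.

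Neighbouring haplotig events lay a median of 67257 bp apart (n = 1636 distances), against 64807 bp on primary contigs (n = 3615). Distances of up to 1 kb made up 159 (9.72%, 8.38 to 11.3%) on haplotigs and 343 (9.49%, 8.58 to 10.5%) on primary contigs, and distances over 100 kb made up 39.0% and 38.3%. Close pairs up to 100 bp apart numbered 32, on 31 haplotigs, with a median distance of 72.5 bp and a shortest one of 26 bp on Haplotig000106F_001. The stronger member of such a pair had a median strength of 52.95 and the weaker one 28.4. The pair on Haplotig000022F_016, with 76.2 and 290.8 at 68 bp, was the strongest of them. Intervals are 201 bp wide, so the members of these pairs share sequence.

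Clusters, in which 5 or more events followed each other at steps of at most 5 kb, were rare: 6 clusters on 4 haplotigs held 54 haplotig events (2.62%), against 18 clusters with 146 events (3.61%) on 15 primary contigs of the diploid list. Haplotig000023F_025 had 6 events within 3923 bp, between 1565046 and 1568969. Their median strength was 45.6, and the strongest reached 80 at 1567301. Haplotig000065F_003 had 5 events from 1729556 to 1734615 with a median of 56.7 and 6 events from 1748356 to 1756671 with a median of 28.1. Haplotig000038F_011 had 5 events from 103790 to 112326, with a median of 31. None of these 4 clusters held an event over 100. The remaining 2 clusters, of 12 and 20 events, were on Haplotig000106F_001.

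Haplotigs with few events could also be dense. All 5 events of Haplotig000037F_023 lay within 10231 bp, from 441346 to 451577, with strengths of 24, 16, 66, 27.4 and 27.6. The 6 events of Haplotig000017F_019 lay within 32120 bp, and the middle 4 had strengths of 104.7, 76.6, 68.4 and 26.5 between 173804 and 176750. Both stretches were singled out for their density after the values were seen.

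In the diploid list the dense stretches of Haplotig000106F_001 and Primary000106F were alike in the number of events and span of their first run. They were also alike in where the second run began, and differed in part of the events within the first run and in the later runs. Both began with 12 events, within 11055 bp on the haplotig (8214 to 19269) and 11062 bp on the primary contig (1497978 to 1509040), with median strengths of 80.95 and 73.5. Within these first runs some events lay at close offsets and others did not. Offsets of 10406 and 11055 bp from the first event on the haplotig were close to 10413 and 11062 bp on the primary contig. The second event lay 26 bp after the first on the haplotig and 2285 bp after it on the primary contig. The second run began 26.5 kb after the first event on the haplotig and 26.6 kb after it on the primary contig. There the haplotig had 3 events within 1188 bp, with strengths of 36.6, 139.4 and 49.9, whereas the primary contig had 11 events within 6544 bp, with strengths of 30.5 to 61.9. The last run began 41.1 kb after the first event on the haplotig, with 20 events over 18343 bp and a median of 53.1. On the primary contig it began at 39.6 kb, with 16 events over 13864 bp and a median of 37.4. Over the whole stretch the haplotig had 35 events in 59416 bp with a median of 57.8, and the primary contig 39 in 53483 bp with a median of 49. Events over 100 in the stretch numbered 8 on the haplotig, against 7 on Primary000106F in the diploid list and 22 in the primary-only list. In the primary-only list the stretch of Primary000106F began at 1497536 and had 36 events in 53924 bp. Their median was 129, above that of the haplotig. No header or label says whether strength has 1 scale in both lists.

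**Figure D5:**
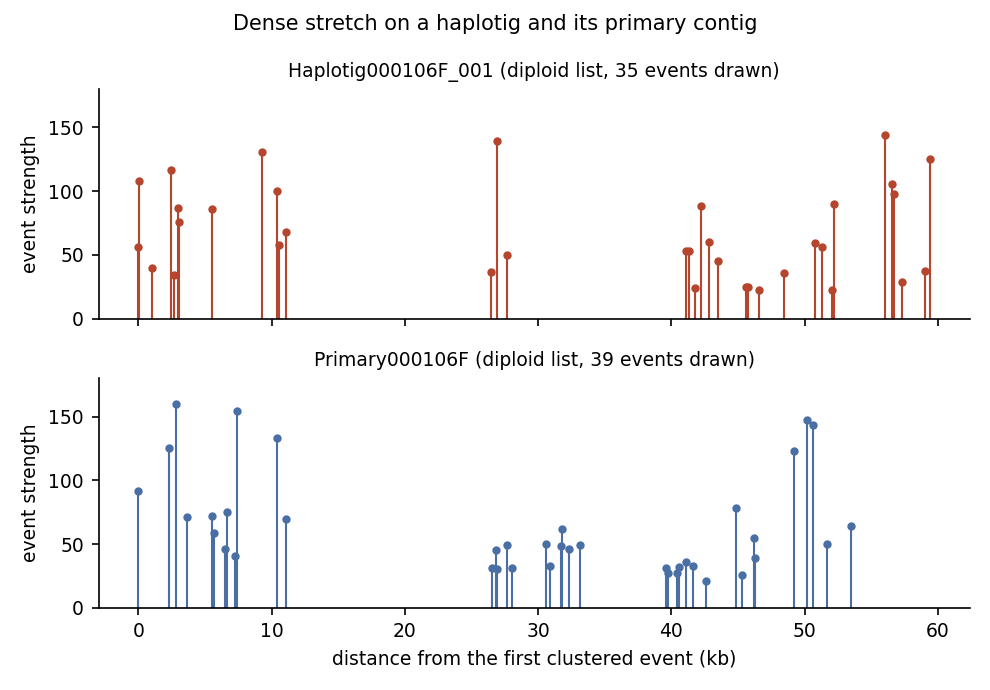
Strength of the MYB24 events along the dense stretch of Haplotig000106F_001 (upper panel) and Primary000106F (lower panel), against distance from the first clustered event in kb. In the diploid list, which is drawn, the first runs of 12 events span 11055 and 11062 bp, and the second runs, of 3 and 11 events, begin at 26.5 and 26.6 kb.

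No single shift paired all events across this stretch. Paired events were counted as the smaller of the numbers of haplotig and primary events with any shift in the range. Such a count is an upper limit of one-to-one pairs. With a range of shifts 1 kb wide, at most 23 of the 38 haplotig events were paired on Primary000106F at a shift of 1488905 bp, in the same orientation. With a range 200 bp wide it was at most 11 events at a shift of 1483795 bp, so the best shift moved by several kb with the width. The next best primary contig was Primary000033F in both cases, with 16 and 9 events. In this stretch 17 of 23 distances of up to 1 kb (73.9%, 53.5 to 87.5%) lay within 2 bp of a multiple of 26 bp, and 17 of 27 (63.0%, 44.2 to 78.5%) did on Primary000106F. The period was found earlier on these same contigs, so this is a description. On all other haplotigs the share was 29 of 136 (21.3%, 15.3 to 28.9%), and with Haplotig000106F_001 included it was 46 of 159 (28.9%, 22.4 to 36.4%). On all primary contigs of the diploid list, Primary000106F among them, it was 98 of 343 (28.6%, 24.0 to 33.6%). Distances without any period would also fall within 2 bp of such multiples at times, and their share was not set beside these. The shares on the other haplotigs and over all primary contigs therefore do not show a general period.

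Counts of paired events were low on the other haplotigs. The 155 haplotigs with at least 5 events held 1495 events. The shift that paired most events within a 1 kb range gave at most 400 pairs on the primary contigs of the same number, counted as above. Without Haplotig000106F_001 the median was 2 pairs and the highest 5. The best of all other primary contigs gave more pairs for 148 haplotigs, as many for 6 and fewer for 1, Haplotig000106F_001. In the primary-only list it gave more for 140, as many for 12 and fewer for 3, which were Haplotig000106F_001 with 21 pairs against 16, and Haplotig000025F_002 and Haplotig000028F_028 with 5 against 4 each. Outside Haplotig000106F_001 the best of the other contigs never gave fewer than 3 pairs in either list, so this comparison does not show whether the order is shared. Haplotig000023F_025 and Haplotig000065F_003 paired 5 events each, against 7 and 10 on Primary000106F. The next highest count was 4 events, reached among others by Haplotig000000F_021, Haplotig000000F_029, Haplotig000001F_023, Haplotig000001F_024, Haplotig000001F_084, Haplotig000002F_095 and Haplotig000005F_021. A single shift cannot follow insertions or deletions between haplotypes, so a low count does not show that the sites differ.

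Distances between neighbouring haplotig events were therefore looked for directly. Outside Haplotig000106F_001 there were 397 such distances of 100 bp to 20 kb, and 25 (6.30%, 4.30 to 9.13%) matched a distance between events on the primary contig of the same number within 10 bp, in the diploid list. The average over all other primary contigs was 0.826%, but contigs with many events offer more chances. Over the 392 distances that had another contig with at least as many event pairs, the share was 5.61% on the contig of the same number and 4.87% on those contigs. Within 5 bp it was 3.83% against 2.52% in the diploid list and 7.65% against 4.70% in the primary-only list. Within 10 bp in the primary-only list it was 10.97% against 9.07%. Within 20 bp it was 10.2% against 8.81% in the diploid list and 16.6% against 16.9% in the primary-only list. For distances from 500 bp the share within 5 bp was 2.78% against 1.65% in the diploid list and 5.56% against 2.93% in the primary-only list. The size of the difference changed with the tolerance and the list, and it was not tested.

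Among the matches, singled out after their values were seen, was the pair of strong events on Haplotig000022F_016. It lay 3051 bp apart with strengths of 233.2 and 211, and Primary000022F had events at 2615551 and 2618605, 3054 bp apart, with 132.4 and 164 in the diploid list. In the primary-only list the same pair of positions, to within 1 bp, had 302 and 227.5. On Haplotig000017F_019 events with 104.7 and 76.6 lay 1041 bp apart, and on Primary000017F events with 52.8 and 116.3 lay 1045 bp apart. Haplotig000147F_001 had 118.7 and 30.1 at a distance of 954 bp, and Primary000147F had 128 and 38 at 952 bp. Haplotig000159F_003 had 28.9 and 102.1 at 114 bp, and Primary000159F had 19.6 and 96.4 at 114 bp. Neither the pair of Haplotig000147F_001 nor that of Haplotig000159F_003 had a match within 10 bp in the primary-only list. Other matches in the diploid list had unlike strengths. Haplotig000028F_003 had 21 and 321.9 at 6580 bp, and Primary000028F had 313.2 and 307.5 at 6575 bp. Haplotig000033F_010 had 25 and 24 at 2712 bp, and Primary000033F had 51.1 and 364.9 at 2714 bp. Whether these are the same sites on both haplotypes was not tested against sequence.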

How the data were processed

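DAP-seq was done with 1 VvMYB24 and 1 pIXHALO library. The submitters' processing notes name Trim Galore 0.6.6, cutadapt 3.1 and Bowtie2 2.3.2. GEM is named in the titles of the deposited lists, and their sequence names point to version 1.1 of the assembly of clone 08. Further settings were not stated in the sources used here. No control events were used here. The deposited lists have no header and were read in narrowPeak order. The deposited signal is called strength. The −log10 p and −log10 q values are the authors', and the deposited score, a capped function of strength, was not used. Read depth is unknown.

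Positions are those in the authors' event names; start and end are 1-based. Haplotigs were assigned to primary contigs by the number in their names, which is no alignment. Named were the 12 strongest events, the haplotigs and contig numbers with most events (12, with ties), all clusters, the 10 haplotigs with most paired events and events over 100 with −log10 p per unit of strength under 0.1. The haplotigs, the period and these choices were made with earlier results of these data known. Medians have binomial order-statistic intervals and shares Wilson intervals, both at 95%. The searches for shifts, clusters and multiples of 26 bp were tested on simulated data, with planted shifts that held no insertions or deletions. The comparison of recurring distances between contigs was not tested in this way. Calculations were run in Python 3.11.15 with pandas 2.3.3 and numpy 2.4.6; intervals came from scipy 1.17.1 and plots from matplotlib 3.10.9.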

Additional observations from a re-analysis of the deposited data

How the results depend on the processing

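The search for recurring distances and its alternatives, the common strength minimum for the haplotig share, and leaving out Haplotig000106F_001 from the paired events were chosen after seeing the data. The haplotig share of the diploid list was 31.6% for −log10 q from 5 upward, 31.4% from 10 upward, 30.7% at or above the median strength and 31.6% at or above the smallest primary-only strength, against 33.8% over the whole list. Using only events with −log10 q from 5 upward, the median haplotig strength was 52, the share of distances within 1 kb 14.6%, the clusters 3 and the paired events 62, where fewer events enter by construction. Clusters of at least 3 events numbered 45. Haplotigs led at 16 contig numbers against the primary-only list, which begins at a higher strength. The share of short distances at a multiple of 26 bp was 18.2% within 1 bp and 21.3% without Haplotig000106F_001. Of the haplotig events over 100, 0 had a −log10 p per unit of strength under 0.05 and 4 were under 0.15, against 1 under 0.1. Recurring distances from 100 bp made up 4.03% within 5 bp and 10.8% within 20 bp in the diploid list, and 11.6% and 17.4% within 10 and 20 bp in the primary-only list. From 500 bp they were 3.04% within 5 bp in the diploid list and 11.9% within 20 bp in the primary-only list. The other settings left these values within their interval or, for counts, within 1.5 times. No paired analysis was possible because the MYB24 and control groups hold 1 library each, which also means that none could be omitted.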
